A study of Mus musculus with 4 samples.

Results

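The genes described here encode the kinetochore, the protein assembly through which a chromosome holds spindle microtubules, together with the centromeric chromatin beneath it and the spindle checkpoint that signals from it. They were chosen by name, as all gene symbols of the array annotation that begin with Cenp and a list of named kinetochore, centromere and checkpoint genes. This gave 44 genes, each with 1 feature on the array, among 19505 genes and 22206 gene features in all. By role, 4 act in centromeric chromatin and its loading, 15 in the inner kinetochore, 15 in the outer kinetochore and 8 in the spindle checkpoint. The remaining 2, Cenpj and Cenpv, carry a Cenp name and were placed in none of these roles.

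CD8+ T cells from C57/BL6 mice, taken from spleen and lymph node, were kept in culture for 3 days. They were activated with Dynabeads Mouse T-Activator CD3/CD28, beads that carry antibodies to CD3 and CD28, and the medium held interleukin 2 (IL-2). For the 2 spermidine samples the medium also held 25 µM spermidine, a polyamine, and the 2 control samples were left untreated. Age and sex of the mice and any pooling of animals are not given in the sources used here. RNA was hybridised to 4 Clariom S Mouse arrays, and signals are compared as deposited log2 values, the scale of all levels and differences below. The labels call the arrays of a group biological replicates and name no animals or cultures, so the p-values reflect only how these samples differ, which may be technical. Array medians lay between 5.13 and 5.25, and the 95th percentile of 23 antigenomic features (probes without a match in the genome) averaged 6.35. That value is called the background level here. All 10 measured T cell and CD8 markers lay above it on every array, with Cd8a between 16.57 and 16.68 and Cd8b1 between 16.66 and 17.19, while Cd4 lay between 6.59 and 7.24, and other CD4 T cell markers are given with those of other cell types.

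Centromeres are marked by nucleosomes that hold the histone H3 variant CENP-A. A set of inner kinetochore proteins, the constitutive centromere-associated network (CCAN), sits on them all through the cell cycle and carries the outer kinetochore, which binds microtubules in mitosis. Kinetochores without attached microtubules activate the spindle checkpoint, which holds back the anaphase-promoting complex until all chromosomes are attached. T cells divide quickly after activation, and many of these genes are transcribed mainly in the G2 and M phases of the cell cycle. The arrays measure RNA of whole cultures, so fewer dividing cells and less RNA per cell cannot be told apart.

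Most of these genes had lower signals with spermidine. The difference, spermidine minus control, was below 0 in 42 of 44 genes (95.5%), against 50.9% of all gene features, and its median was -0.63 on the log2 scale, against -0.01 over all features and -0.03 over the 9228 features whose mean lay above the background level. Both spermidine arrays lay below both control arrays in 31 of the 44 genes (70.5%), against 18.4% of all features and 22.5% of those above the background level. In 0 of the 44 did both lie above, against 18.3% of all features. A difference of 2-fold or more downward was seen in 12 genes (27.3%), against 0.594% of all features and 1.17% of those above the background level. The inner kinetochore subunit gene Cenpk was the lowest, 3.18-fold below control, followed by the checkpoint kinase gene Ttk at 2.93-fold. The genes nearest to the 2-fold mark were Oip5, 2.07-fold lower, and Spc25, 1.95-fold lower.

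None of these differences passed the test across all features (limma, two-sided, Benjamini-Hochberg over 22206 features): 0 of 44 genes had an adjusted p under 0.05, as did 0% of all features. The adjusted p of the 44 genes ran from 0.623 to 0.998. At an unadjusted p under 0.05, 21 of the 44 were lower (47.7%) and 0 higher, against 3.64% of features lower and 3.38% higher, and 5.32% lower among features above the background level. With 4 arrays, the smallest two-sided p of an exact permutation test is 1 in 3, above any usual threshold, and it was left out. All genes below are therefore given as measured values and not as called changes.

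**Figure D1:**
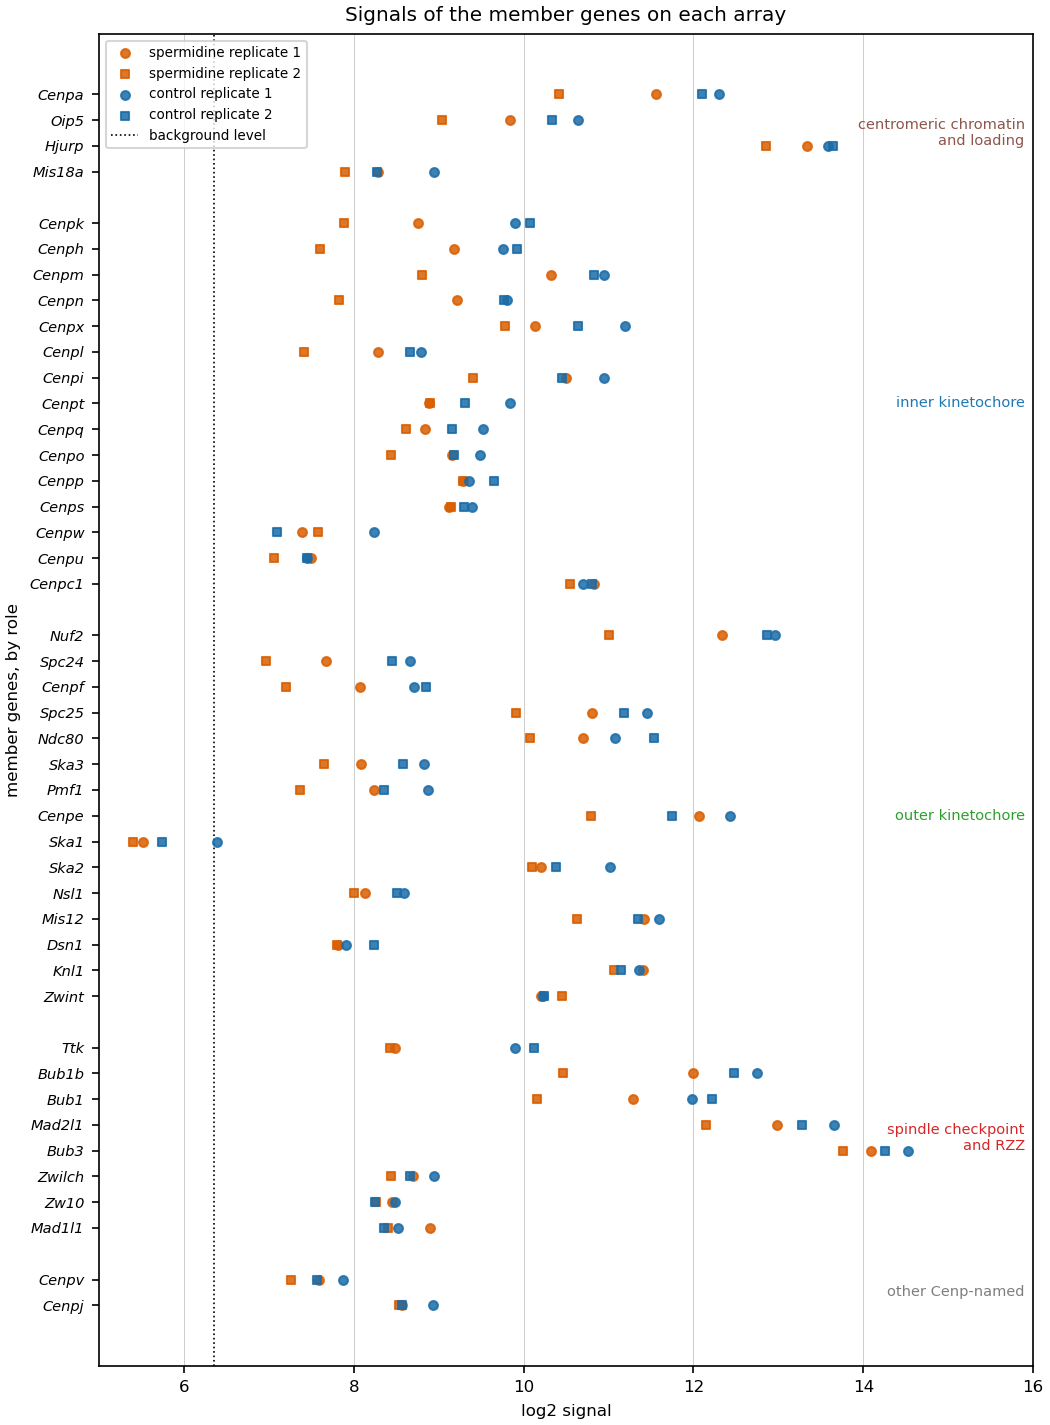
Log2 signal of each of the 44 genes (rows, by role) on each array (points); the dotted line is the background level of 6.35. In most rows both spermidine points lie left of both control points, and spermidine replicate 2 is usually the lowest.

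The spermidine arrays differed between themselves. Spermidine replicate 2 lay below replicate 1 in 40 of 44 genes (90.9%), against 52.5% of all features, and the median gap between them was 0.46 over these genes and 0.02 over all features. Replicate 1 alone lay below both control arrays in 32 genes, against 32.8% of all features, and replicate 2 alone in 40, against 37.3%. Control replicate 2 lay below control replicate 1 in 32 of 44 genes, against 49.1% of all features, with a median gap of 0.23. The group difference was larger than the gap within either group in 18 of the 44 genes, against 5446 of all 22206 features and 2634 of the 9228 above the background level. Of the 12 genes that were at least 2-fold lower, Ttk had the smallest gap between the spermidine arrays, 0.06, and Cenph the largest, 1.57. Without spermidine replicate 2 the median was -0.43 and 39 of 44 genes were still lower, and without spermidine replicate 1 the median was -0.87.

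**Figure D2:**
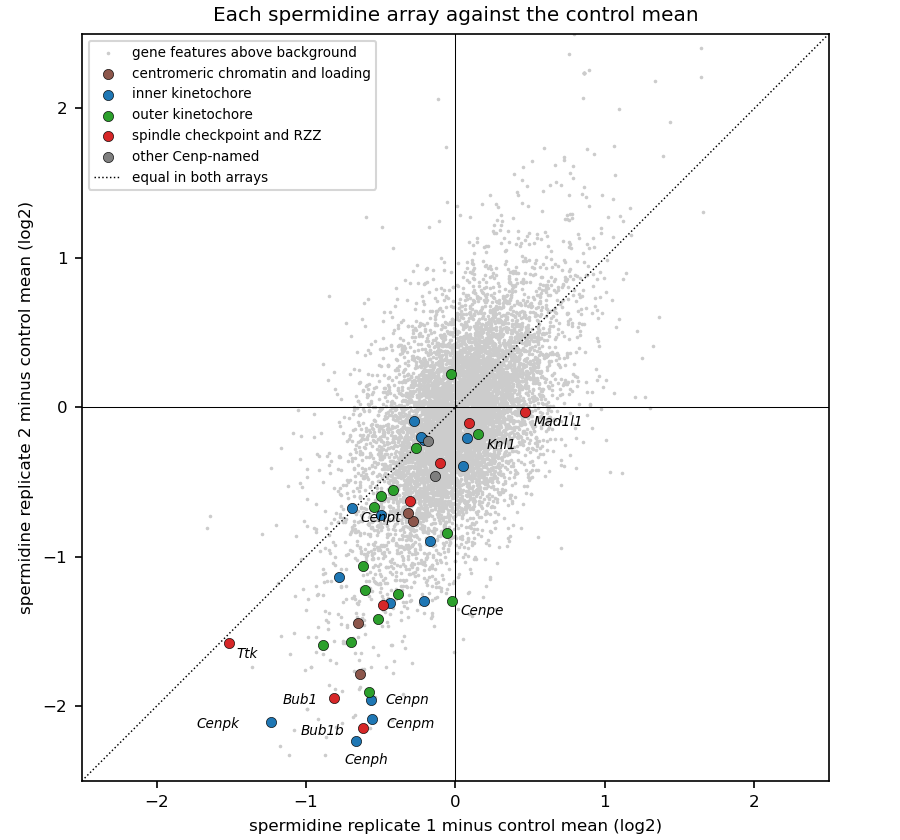
Each spermidine array minus the control mean (log2), replicate 1 on the horizontal and replicate 2 on the vertical axis, for the 44 genes (coloured by role) and for features above the background level (grey; 6 lie beyond the axes). Most coloured points lie below the dotted line of equal values, down to -2.23 for Cenph in replicate 2, whereas Ttk lies close to it at -1.52 and -1.58.

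Other measures also differed between the groups on these arrays. Of 9 measured B cell markers 8 were higher with spermidine, with a median difference of 0.35, array means of 6.15 and 5.78 with spermidine and 5.64 and 5.56 in control, and 4 of 9 above the background level. Macrophage and dendritic cell markers (9 and 8 measured) had means below the background level in every case, with median differences of 0.10 and 0.07. The 10 T cell and CD8 markers had array means of 14.05 and 14.15 with spermidine and 14.20 and 14.21 in control, with a median difference of -0.13. Of 6 listed NK cell markers 5 were measured, 3 of them above the background level, with a median difference of -0.50. Their array means were 7.25 and 6.81 with spermidine and 7.54 and 7.04 in control. That median is the value of Eomes, by far the brightest of the 5. Eomes had 13.22 and 11.82 with spermidine against 13.57 and 12.46 in control. Whether these signals come from NK cells was not tested. Among the 5 NK cell markers, 3 were lower with spermidine: Klre1 at -0.85 ± 0.23 (SE), Klrk1 at -0.52 ± 0.29 and Eomes at -0.50 ± 0.50. The other 2 were higher, Ncr1 at 0.44 ± 0.25 and Klrb1c at 0.11 ± 0.30. Klre1 and Ncr1 lay below the background level. Of 4 listed CD4 T cell markers 3 were measured, with a median difference of -0.06. Among them Zbtb7b, a transcription factor of the CD4 lineage, had 7.32 and 7.41 with spermidine against 6.32 and 6.88 in control, a difference of 0.76 ± 0.26 (SE) with groups apart, and Cd40lg was below the background level. The 4 hybridisation spike-ins, control transcripts added before hybridisation, averaged 10.74 and 11.02 with spermidine and 10.47 and 10.39 in control. The 4 poly-A spike-ins, control transcripts added to the RNA before labelling, averaged 5.23 and 5.28 with spermidine and 4.88 and 4.77 in control. These averages all lay below the background level. The 1324 exonic control features averaged 9.81 and 9.71 with spermidine and 9.89 and 9.71 in control. The part of these shifts in the kinetochore gene differences was not tested.

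Promoter sequences of these genes were searched for elements known from cell cycle genes. The search used the CHR element of G2 and M phase genes, bound by MuvB complexes (TTTGAA and TTCGAA), the CCAAT box bound by NF-Y (CCAAT), and E2F sites (TTTCCCGC, TTTGGCGC, TTTCGCGC and TTTGCCGC), on both strands. Windows ran from 250 bases before to 50 after a RefSeq gene start (GRCm38.p6), and 40 of the 44 genes had at least 1. The sequences shown are those of the 3 genes with the lowest and the 2 with the smallest difference among genes above the background level, in lower case with CHR and CCAAT matches in capitals. The first 3 are the lowest and the last 2 the nearest to 0. For Cenpk, which has 3 windows, the one at the outermost gene start is given.
Cenpk, chr13:104228361-104228660, plus strand: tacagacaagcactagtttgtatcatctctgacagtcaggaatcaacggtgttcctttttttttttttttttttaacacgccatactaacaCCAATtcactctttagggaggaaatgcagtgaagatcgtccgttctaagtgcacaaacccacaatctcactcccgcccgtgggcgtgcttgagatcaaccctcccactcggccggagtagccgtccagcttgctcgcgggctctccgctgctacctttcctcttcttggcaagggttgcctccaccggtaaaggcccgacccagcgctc
Ttk, chr9:83834439-83834738, plus strand: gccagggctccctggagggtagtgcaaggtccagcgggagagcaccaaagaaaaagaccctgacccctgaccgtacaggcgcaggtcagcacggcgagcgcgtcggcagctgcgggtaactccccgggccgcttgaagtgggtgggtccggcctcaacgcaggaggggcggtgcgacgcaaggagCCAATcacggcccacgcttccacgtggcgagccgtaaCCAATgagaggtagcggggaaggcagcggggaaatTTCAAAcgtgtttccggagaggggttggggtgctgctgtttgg
Cenph, chr13:100775850-100776149, minus strand: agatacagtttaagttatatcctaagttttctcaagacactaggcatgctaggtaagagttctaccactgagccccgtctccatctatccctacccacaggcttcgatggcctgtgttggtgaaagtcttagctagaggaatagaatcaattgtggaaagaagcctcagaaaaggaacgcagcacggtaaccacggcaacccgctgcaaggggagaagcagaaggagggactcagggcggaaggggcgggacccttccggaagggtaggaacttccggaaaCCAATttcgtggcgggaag
Zw10, chr9:49055331-49055630, plus strand: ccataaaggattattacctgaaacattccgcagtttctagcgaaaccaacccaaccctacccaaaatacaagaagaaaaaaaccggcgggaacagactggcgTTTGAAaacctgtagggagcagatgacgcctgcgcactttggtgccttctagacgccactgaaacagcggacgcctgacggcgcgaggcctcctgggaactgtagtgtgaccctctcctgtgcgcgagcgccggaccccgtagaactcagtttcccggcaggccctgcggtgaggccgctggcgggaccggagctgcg
Knl1, chr2:119046869-119047168, plus strand: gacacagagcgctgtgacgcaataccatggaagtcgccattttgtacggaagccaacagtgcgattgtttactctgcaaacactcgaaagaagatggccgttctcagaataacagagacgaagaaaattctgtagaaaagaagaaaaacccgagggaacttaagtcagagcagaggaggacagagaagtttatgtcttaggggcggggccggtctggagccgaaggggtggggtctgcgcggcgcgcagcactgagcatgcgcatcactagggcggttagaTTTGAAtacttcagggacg
The Ttk window holds 2 CCAAT boxes, which begin at -65 and -28 from the gene start, and 1 CHR match on the reverse strand that begins at 8 after it. The Cenpk window holds 1 CCAAT at -159 and that of Cenph 1 at 32 after the start, and neither has a CHR match. The windows of Zw10 and Knl1 each hold 1 CHR match, at -148 and at 32 after the start, and no CCAAT. None of the 5 holds an E2F match.

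Over the 40 genes with a window, CHR was found in 20 of 45 windows (44.4%), CCAAT in 29 (64.4%) and an E2F match in 5 (11.1%). Among all 32851 windows of the table the shares were 19.2%, 37.4% and 2.26%. CHR and CCAAT occurred in the same window in 33.3% of the 45 and in 7.52% of all windows. Counted by gene, CHR was present in 15 of 28 genes whose spermidine arrays lay below both control arrays and in 4 of 12 whose arrays overlapped, and CCAAT in 18 of 28 and 7 of 12. Of the 11 genes that were at least 2-fold lower and had a window, 8 had a CHR and 10 a CCAAT match. These counts describe letters in the windows and were not tested, and 1 pair of matches of different motifs overlapped.

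In centromeric chromatin, the histone gene and its loading factors were lower. Cenpa, the gene of the CENP-A histone, had 11.56 and 10.41 in the spermidine arrays, against 12.30 and 12.10 in the control arrays, a 2.32-fold lower level (log2 difference -1.21 ± 0.36, SE). Oip5, which encodes the Mis18-beta subunit of the complex that licenses new CENP-A, had 9.84 and 9.04 in the spermidine arrays, against 10.64 and 10.34 in the control arrays. Hjurp, the chaperone that deposits CENP-A, had 13.33 and 12.86 in the spermidine arrays, against 13.59 and 13.64 in the control arrays. In these 3 genes the groups did not overlap, and the difference of Hjurp (-0.52 ± 0.25, SE) was about as large as the gap between its spermidine arrays. Mis18a, the other Mis18 subunit, had 8.29 and 7.89 in the spermidine arrays, against 8.94 and 8.27 in the control arrays. Its groups overlapped, with 1 spermidine array above the lower control array.

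The 15 inner kinetochore genes ranged from -1.67 to -0.06 with a median of -0.68, and all 15 lay below 0. In 11 of them (73.3%) both spermidine arrays lay below both control arrays, against 18.4% of all features and 22.5% of those above the background level. The largest differences were in the subunits of CENP-HIKM, a CCAN subcomplex. Cenpk had 8.75 and 7.88 in the spermidine arrays, against 9.90 and 10.07 in the control arrays (-1.67 ± 0.31, SE). Cenph had 9.18 and 7.61 in the spermidine arrays, against 9.75 and 9.92 in the control arrays (-1.45 ± 0.45, SE). Cenpm, whose product resembles a small GTPase, had 10.33 and 8.80 in the spermidine arrays, against 10.94 and 10.83 in the control arrays (-1.32 ± 0.44, SE). In all 3 the groups were apart, and in Cenph and Cenpm the gap between the spermidine arrays was larger than the group difference. Cenpi had 10.49 and 9.40 in the spermidine arrays, against 10.95 and 10.46 in the control arrays, and its spermidine replicate 1 lay above control replicate 2. The control arrays of Cenpk, Cenph and Cenpm lay within 0.17 of each other.

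CENP-L and CENP-N bind each other, and CENP-N also contacts the CENP-A nucleosome. Cenpn had 9.22 and 7.82 in the spermidine arrays, against 9.80 and 9.76 in the control arrays (-1.26 ± 0.41, SE). Cenpl had 8.29 and 7.41 in the spermidine arrays, against 8.79 and 8.66 in the control arrays (-0.87 ± 0.31, SE). Both genes were low in both spermidine arrays and lowest in replicate 2. The CENP-T, W, S and X proteins carry histone folds, and CENP-T also recruits NDC80. Cenpx had 10.14 and 9.78 in the spermidine arrays, against 11.19 and 10.64 in the control arrays (-0.96 ± 0.27, SE), and Cenpt had 8.88 and 8.90 in the spermidine arrays, against 9.84 and 9.31 in the control arrays (-0.68 ± 0.26, SE). The spermidine arrays of Cenpt differed by 0.02, and its difference was -0.67 without replicate 1 and -0.69 without replicate 2. Cenps, at -0.21, had 9.12 and 9.15 in the spermidine arrays, against 9.40 and 9.29 in the control arrays, a small difference whose groups did not overlap. Cenpw had 7.38 and 7.57 in the spermidine arrays, against 8.23 and 7.09 in the control arrays, so its control arrays spanned both spermidine arrays.

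Of the CENP-OPQUR group, whose subunits help chromosomes align, 4 genes are among the 44. Cenpq stood at -0.61 ± 0.24 (SE), Cenpo at -0.53 ± 0.29, Cenpp at -0.21 ± 0.23 and Cenpu at -0.17 ± 0.24. The groups were apart in Cenpq, Cenpo and Cenpp and overlapped in Cenpu, in which spermidine replicate 1 (7.50) lay above both control arrays (7.45 each). In Cenpo the nearest arrays of the groups were 9.16 with spermidine and 9.18 in control. Cenpc1, the gene of CENP-C, which links CENP-A nucleosomes to the outer kinetochore, had 10.83 and 10.54 in the spermidine arrays, against 10.69 and 10.81 in the control arrays. Its groups overlapped, and the 95% confidence interval of its log2 difference of -0.06 ran from -0.60 to 0.47, which holds changes of up to about the size seen in Cenpq.

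**Figure D3:**
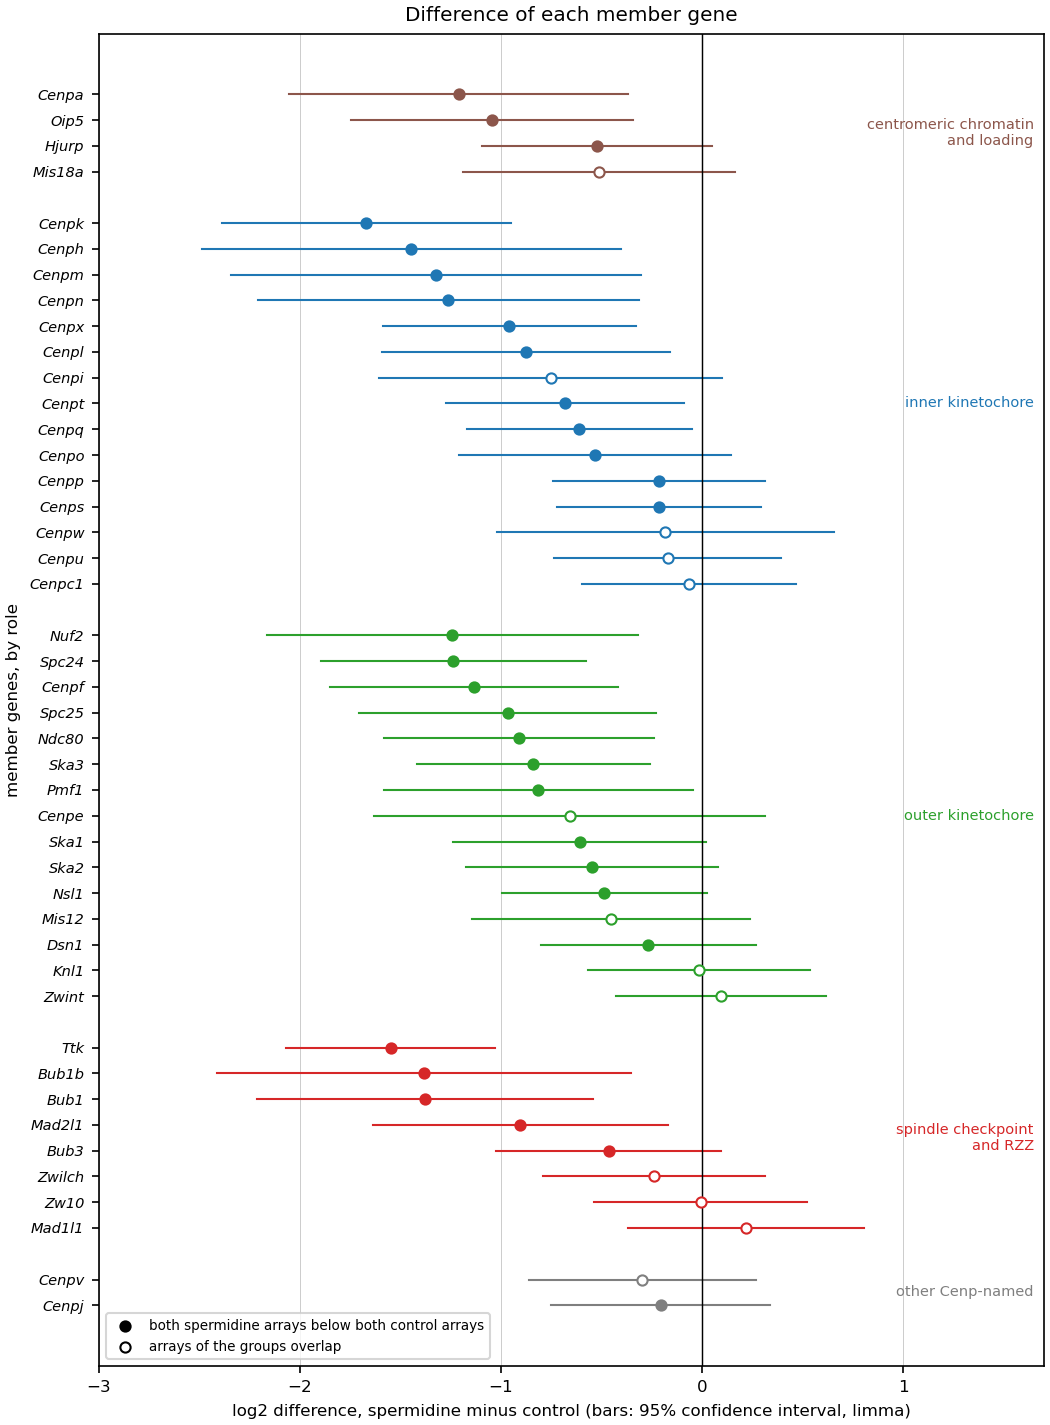
Log2 difference of each gene, spermidine minus control, with its 95% confidence interval from limma; filled points mark genes whose spermidine arrays both lay below both control arrays. The values run from -1.67 (Cenpk) to 0.22 (Mad1l1), and the widest intervals belong to genes whose spermidine arrays lay far apart, such as Cenph and Bub1b.

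The 15 outer kinetochore genes ranged from -1.24 to 0.09 with a median of -0.66, 11 of them (73.3%) with groups apart, against the same 18.4% and 22.5%. The NDC80 complex, the main microtubule binder of the kinetochore, has the subunits Ndc80, Nuf2, Spc24 and Spc25, and all 4 genes were lower with groups apart. Nuf2 had 12.34 and 11.01 in the spermidine arrays, against 12.96 and 12.87 in the control arrays (-1.24 ± 0.40, SE). Spc24 had 7.67 and 6.96 in the spermidine arrays, against 8.66 and 8.45 in the control arrays (-1.24 ± 0.29, SE). Spc25 had 10.80 and 9.90 in the spermidine arrays, against 11.46 and 11.18 in the control arrays (-0.97 ± 0.32, SE). SPC24 and SPC25 anchor the complex in the kinetochore, while NDC80 and NUF2 bind the microtubule. Ndc80 itself had 10.70 and 10.08 in the spermidine arrays, against 11.07 and 11.53 in the control arrays (-0.91 ± 0.29, SE).

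The MIS12 complex joins the inner kinetochore to NDC80 and KNL1, and its genes differed by less, with a median of -0.47 against -1.10 in the NDC80 genes. Pmf1 stood at -0.81 ± 0.33 (SE), Nsl1 at -0.49 ± 0.22, Mis12 at -0.45 ± 0.30 and Dsn1 at -0.27 ± 0.23. The arrays of Mis12 overlapped, and those of the other 3 genes were apart. The difference between the complexes was not tested.

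The genes of the KNL1 complex had differences near 0. Knl1, the scaffold on which checkpoint proteins assemble, had 11.40 and 11.07 in the spermidine arrays, against 11.36 and 11.14 in the control arrays. Zwint, its binding partner, had 10.20 and 10.45 in the spermidine arrays, against 10.22 and 10.24 in the control arrays. In both genes the arrays of the groups overlapped. The 95% confidence interval of the log2 difference ran from -0.57 to 0.54 for Knl1 and from -0.43 to 0.62 for Zwint. The value of Spc25 (-0.97) lies outside both intervals, but its own interval, from -1.71 to -0.23, overlaps them. The difference between these genes was not tested. Knl1 is bright on these arrays, between 11.07 and 11.40.

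The SKA complex stabilises attached microtubules. Ska3 had 8.08 and 7.64 in the spermidine arrays, against 8.82 and 8.58 in the control arrays (-0.84 ± 0.25, SE). Ska2 had 10.20 and 10.10 in the spermidine arrays, against 11.02 and 10.38 in the control arrays (-0.55 ± 0.27, SE). The groups were apart in both, with control replicate 1 of Ska2 well above the other 3 arrays. Ska1, at 5.52 and 5.40 with spermidine against 6.39 and 5.75 in control, was the 1 gene of the 44 with a mean below the background level, and its difference is not interpreted here. Cenpe and Cenpf belong to the corona that captures microtubules at the outer edge. Cenpf had 8.08 and 7.21 in the spermidine arrays, against 8.71 and 8.85 in the control arrays (-1.13 ± 0.31, SE). Cenpe, a kinesin motor, had 12.07 and 10.79 in the spermidine arrays, against 12.43 and 11.75 in the control arrays. The groups were apart in Cenpf and overlapped in Cenpe, whose difference of -0.66 became -0.02 without spermidine replicate 2 and -1.30 without spermidine replicate 1.

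In the spindle checkpoint, the kinase genes were among the lowest of all 44. Ttk, the MPS1 kinase that starts checkpoint signalling by phosphorylating KNL1, had 8.49 and 8.43 in the spermidine arrays, against 9.89 and 10.12 in the control arrays. Its mean was 8.46 ± 0.04 with spermidine and 10.01 ± 0.16 in control (SD, n = 2 each), and its log2 difference of -1.55 ± 0.23 (SE) was 6.77 times the larger gap within a group. The adjusted p of Ttk was 0.623 (limma, Benjamini-Hochberg). With each array left out in turn its difference stayed between -1.66 and -1.43. Bub1, the kinase that docks on phosphorylated KNL1, had 11.29 and 10.16 in the spermidine arrays, against 11.99 and 12.21 in the control arrays (-1.38 ± 0.36, SE). Bub1b, the gene of BUBR1, a part of the mitotic checkpoint complex, had 11.99 and 10.46 in the spermidine arrays, against 12.75 and 12.48 in the control arrays (-1.38 ± 0.45, SE). The groups were apart in both genes, and without spermidine replicate 2 they stood at -0.81 and -0.62.

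Mad2l1 encodes MAD2, which binds and holds the activator Cdc20, and had 12.99 and 12.14 in the spermidine arrays, against 13.66 and 13.28 in the control arrays (-0.90 ± 0.32, SE). Bub3, the partner of BUB1 and BUBR1 and the brightest of the 44 genes, had 14.09 and 13.76 in the spermidine arrays, against 14.53 and 14.25 in the control arrays (-0.47 ± 0.24, SE). Both had groups apart, with Bub3 differing by less. Mad1l1, the gene of the MAD1 protein that brings MAD2 to kinetochores, had 8.90 and 8.41 in the spermidine arrays, against 8.52 and 8.35 in the control arrays. Its spermidine and control arrays overlapped, and its value of 0.22 ± 0.25 (SE) was the highest of the 44. The RZZ complex recruits MAD1 and dynein to kinetochores. Zw10, which also acts in membrane traffic in interphase, had 8.45 and 8.26 in the spermidine arrays, against 8.48 and 8.25 in the control arrays, and Zwilch had 8.70 and 8.43 in the spermidine arrays, against 8.95 and 8.66 in the control arrays. Both overlapped, with a 95% confidence interval of the log2 difference from -0.54 to 0.52 for Zw10 and from -0.79 to 0.31 for Zwilch.

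The 2 Cenp-named genes placed in none of the roles above had small differences. Cenpj, which acts in centriole assembly, stood at -0.20 ± 0.24 (SE), and Cenpv, which was named for its location at centromeres, at -0.30 ± 0.24. The arrays of Cenpj were barely apart, 8.57 and 8.53 with spermidine against 8.94 and 8.57 in control, and those of Cenpv overlapped.

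Genes that work with the kinetochore were also mostly lower. Of 28 listed partners 27 were measured, and 23 were lower (85.2%, against 50.9% of all features), with a median of -0.72. In 21 (77.8%, against 18.4%) both spermidine arrays lay below both control arrays, and 7 (25.9%, against 0.594%) were at least 2-fold lower. The partners with the largest statistics were the mitotic kinase gene Plk1 (-1.27 ± 0.29, SE), the cohesin protector Sgo1 (-0.97 ± 0.24), the checkpoint target Cdc20 (-1.26 ± 0.32) and the separase gene Espl1 (-0.86 ± 0.23). Cdc20 had 9.18 and 8.27 in the spermidine arrays, against 10.13 and 9.84 in the control arrays. Of the replication origin and fork genes, which act in S phase, 32 of 34 listed were measured. All 32 were lower, with a median of -0.63, against 50.9% of all features and 54.2% of those above the background level. In 25 (78.1%) the groups were apart, against 18.4% of all features and 22.5% of those above the background level. In this list 1 of 32 (3.12%) was at least 2-fold lower, against 0.594% of all features and 1.17% of those above the background level. This gene was Orc6 (-1.25 ± 0.40, SE), named after its value was seen. The same share was 27.3% in the 44 kinetochore genes and 25.9% in their partners. The replication genes with the largest statistics were Gins1 (-0.99 ± 0.27, SE), Mcm10 (-0.74 ± 0.22), Mcm3 (-0.75 ± 0.22) and Gins3 (-0.85 ± 0.27). The difference between these lists was not tested, and 0 members of either list passed the adjusted threshold (limma), with 13 partners (48.1%) and 15 replication genes (46.9%) lower at an unadjusted p under 0.05, against 3.64% of all features.

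**Figure D4:**
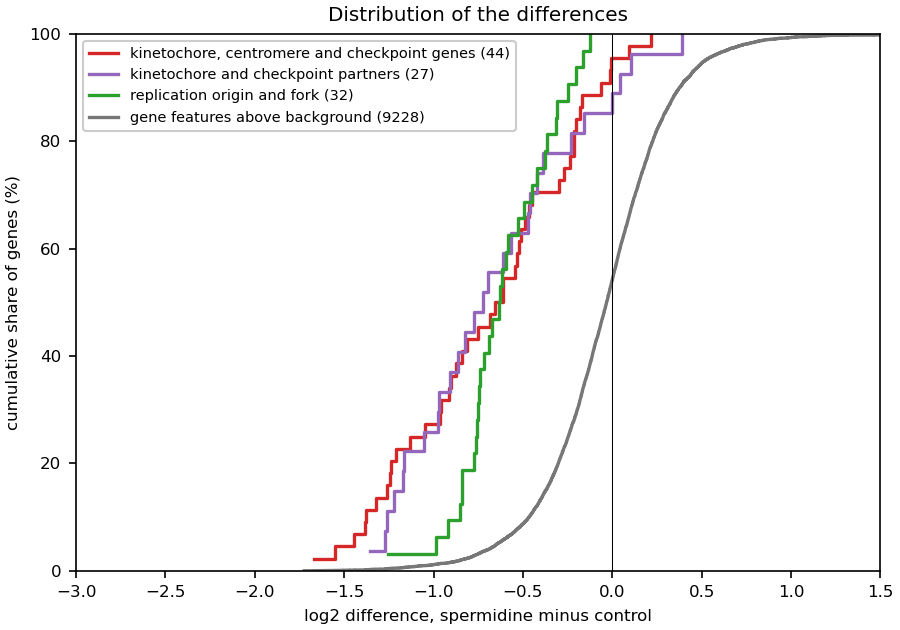
Cumulative share of genes (vertical axis, %) by log2 difference, spermidine minus control, for the 44 kinetochore, centromere and checkpoint genes, 27 partners, 32 replication genes and the 9228 features above the background level. The 3 gene lists lie left of the features, with medians of -0.63, -0.72, -0.63 and -0.03 in that order.

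With 2 arrays in a group, leaving out 1 moves each difference by an amount set by the gap between them. The values with 1 array left out therefore restate these gaps and are no separate evidence of stability. Without spermidine replicate 2 the difference of 25 of the 44 genes shrank in size by over 1.5 times, among them Cenph (-0.66), Cenpm (-0.56), Cenpn (-0.56), Nuf2 (-0.58), Cenpa (-0.64) and Cenpf (-0.70). Without spermidine replicate 1 the same genes stood at -2.23, -2.09, -1.96, -1.91, -1.79 and -1.57. The 25 also include Cenpu and Zwint, which lay near 0 and whose sign turned. The same count over all features was not made. Cenpk kept -1.23 without spermidine replicate 2. Some differences were also smaller without control replicate 1: without it Ska2 stood at -0.23, Mis18a at -0.18 and Cenpt at -0.41, and Cenpw turned to 0.39. In no case with 1 array left out did a member pass the adjusted threshold.

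**Figure D5:**
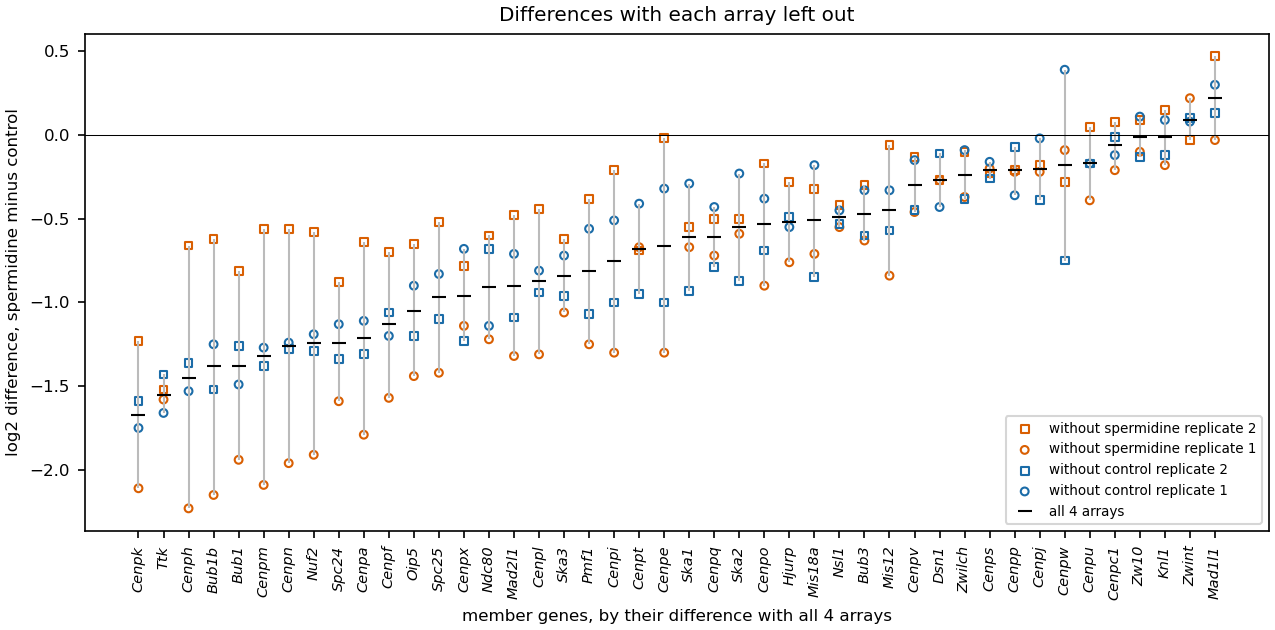
Log2 difference of each of the 44 genes, spermidine minus control, with all 4 arrays (short dashes) and with each array left out (symbols). Symbols for analyses without spermidine replicate 2 lie nearest to 0 for most genes on the left, while the symbols of Ttk lie close together between -1.66 and -1.43.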

How the data were processed

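Clariom S Mouse arrays were made from 2 spermidine and 2 control samples, grouped by their titles. The authors deposited 1 log2 signal for each feature and array. The submitters' processing notes name RMA and Affymetrix Expression Console, without versions. RMA adjusts for background, equalises the distributions of the arrays and combines probes, which can make fold changes of dim features too small. The log base was inferred from the values. The table held 28846 features, of which 6640 control features were kept out. Of 22206 gene features, 19572 had 1 symbol in the platform annotation and 2634 none.

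Spermidine was compared with control with limma 3.58.1 under R 4.3.3 (functions lmFit and eBayes, without a block; 5.96 prior and 2 residual degrees of freedom; median SE 0.246), and p-values were adjusted by Benjamini-Hochberg across every gene feature, with calls at 0.05. The members, the roles, the lists, the naming rule and the alternatives were chosen with earlier results of these data known. All members may be named; of the partner and replication lists the 4 with the largest moderated t are named. Further partners and the replication gene Orc6 fall outside this rule and were chosen after their values were seen. Promoter sequences are from RefSeq. Subcomplexes were assigned from textbook knowledge with the values known. The fit was tested on simulated data with 200 changed features among 22206. Of downward changes of 1 on the log2 scale, 5.6% passed the adjusted threshold. For downward changes of 2 the share was 89.2%, so most 2-fold changes would be missed with these arrays. The number of arrays limits the precision. Alternatives were other priors, array weights, median centring, cyclic loess, a level filter, the replicate number as a block and leaving out each array.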

Additional observations from a re-analysis of the deposited data

How the results depend on the processing

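Of 484 single-gene values under the alternatives 473 kept their sign and stayed above the threshold, and 0 of the 44 genes passed an adjusted p of 0.05 under any of them (limma; lowest adjusted p 0.192). The sign turned for genes near 0: under cyclic loess Knl1 stood at 0.04 and Zw10 at 0.02; without spermidine replicate 2 Cenpc1 at 0.08, Cenpu at 0.05, Knl1 at 0.15, Zw10 at 0.09 and Zwint at -0.03; without control replicate 1 Cenpw at 0.39, Knl1 at 0.09 and Zw10 at 0.11; and without spermidine replicate 1 Mad1l1 at -0.03. Over all features 0 passed, 1 passed with an intensity trend, median centring, cyclic loess, the level filter or the replicate block, and 1558 had an unadjusted p under 0.05. The count of 31 genes with groups apart was 29 after median centring and 35 after cyclic loess. The share over all features, 18.4%, was counted for the deposited values only, so these 2 counts have no share beside them. With 1 array left out the count of genes ran from 31 to 40, but it could not fall, because fewer arrays were compared. The median of all 44 genes with 1 array left out ran from -0.90 to -0.43. That of the inner kinetochore ran from -0.94 to -0.43 and of the outer kinetochore from -1.06 to -0.45. It ran from -1.10 to -0.48 in centromeric chromatin and loading and from -0.98 to -0.39 in the checkpoint. For the partners it ran from -0.92 to -0.41 and for the replication genes from -0.88 to -0.41. Arrays with the same replicate number are not said to share an animal or a day. Their deviations from the group means correlated at 0.21 across features, and with the replicate block 28 of 44 genes and 2350 of all features had an unadjusted p under 0.05. Each gene had 1 feature, so averaging features gave no other value. With 1 array left out, the differences of genes whose sign turned ran from -0.21 to 0.08 in Cenpc1, -0.39 to 0.05 in Cenpu, -0.75 to 0.39 in Cenpw, -0.18 to 0.15 in Knl1, -0.03 to 0.47 in Mad1l1, -0.13 to 0.11 in Zw10 and -0.03 to 0.22 in Zwint.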

Other observations

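All genes given here are partners outside the rule for named genes, and were chosen after their values were seen. Kntc1, the remaining subunit of the RZZ complex, had log2 signals of 10.67 and 9.78 in the spermidine arrays, against 11.08 and 10.82 in the control arrays, a difference of -0.72 ± 0.32 (SE). Itgb3bp, which encodes CENP-R of the CENP-OPQUR group, had 7.64 and 8.17 in the spermidine arrays, against 8.70 and 8.66 in the control arrays, with its lower spermidine value in replicate 1. Aurkb, the kinase of the chromosomal passenger complex that corrects faulty attachments, stood at -1.22 ± 0.39 (SE), and Incenp, Birc5 and Cdca8 of the same complex at -0.61, -0.70 and -0.91. Trip13, the ATPase that takes MAD2 out of checkpoint complexes, stood at -1.36 ± 0.46 (SE). The groups were apart in all of these genes.

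Further partners were lower with groups apart as well. They include the kinesin genes Kif18a and Kif2c, at -1.17 ± 0.35 and -0.98 ± 0.27 (SE), and the spindle genes Knstrn and Spag5, at -1.16 ± 0.32 and -1.05 ± 0.39. The helicase gene Ercc6l stood at -0.82 ± 0.46, with 6.86 and 5.23 in the spermidine arrays, against 6.87 and 6.86 in the control arrays. Its groups were barely apart, and its difference rests on spermidine replicate 2, which lay below the background level. Spdl1 and Sgo2a were lower with overlapping groups, at -0.47 ± 0.34 and -0.46 ± 0.33 (SE). Champ1 and Nde1 had groups apart but small differences, at -0.23 ± 0.23 and -0.16 ± 0.22. Of the 27 partners 4 were not lower. Pttg1, the gene of securin, which holds separase inactive until anaphase, had 9.15 and 8.95 in the spermidine arrays, against 8.93 and 9.17 in the control arrays. Zfp207, whose product stabilises BUB3, stood at 0.04 ± 0.22 (SE), and Bod1 at 0.10 ± 0.23. Ndel1, a dynein regulator, was higher with groups apart, at 12.16 and 12.08 in the spermidine arrays, against 11.72 and 11.74 in the control arrays. By limma, with Benjamini-Hochberg adjustment, no gene of this group reached 0.05, and a test of one gene against another was not made.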
